A study of Mus musculus with 30 samples.

Results

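The genes described are Tslp, the cytokine genes Il4 and Il13, the receptor genes Il7r, Il4ra, Il13ra1, Il13ra2 and Il1rl1, and the transcription factor gene Stat6, which together form the TSLP and type 2 cytokine pathway. Members were all probe sets whose gene symbol in the deposited intensity matrix was one of these 9 names, which gave 18 of 45037 probe sets and 9 of 22121 gene symbols. All 18 remained among the 36029 probe sets tested once the dimmest 20% had been left out. Shaved back skin came from female 129–C57BL/6 mice, 8 to 12 weeks old, that were either wild type (WT) or D6-deficient. D6, encoded by Ccbp2, is an atypical receptor that scavenges inflammatory CC chemokines, and the D6-deficient animals lack it in all cells. Mice received 3 applications of 50 μM TPA, a phorbol ester irritant, in acetone at 24 h intervals, and skin was taken 1, 2, 4 or 6 days later. The day 0 controls of each genotype received acetone alone, although some labels call them untreated. Each of the 10 genotype-by-day groups held 3 Affymetrix arrays of whole skin, 1 array a mouse, so that every day was measured in different animals. Values are RMA intensities on the log2 scale, and the number of arrays limits their precision. Probe sets differ in brightness for reasons other than transcript abundance, so a level is compared between groups and never between genes.

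TSLP is released mainly by epithelial cells, keratinocytes among them, and signals through a receptor built from Crlf2 and Il7r on dendritic cells, basophils, mast cells and lymphocytes. IL-4 and IL-13 signal through Il4ra, paired with the common gamma chain Il2rg or with Il13ra1, and act on transcription through STAT6, whereas Il13ra2 binds IL-13 without that output and is generally regarded as a decoy. Il1rl1 encodes ST2, the receptor for the epithelial alarmin IL-33, which is made both as a membrane receptor and as a shorter secreted form. In skin the pathway is best known from atopic dermatitis.

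The genes Il4ra, Il13ra2 and Il1rl1 each had a probe set that rose more than 3-fold on day 4 in both genotypes, and the 250 bases upstream of their RefSeq start sites (GRCm38.p6) are shown for that reason. For Il1rl1 this was its dimmer probe set, whose control values lay near the lowest mean kept, so its fold is uncertain. Promoter entries were matched by symbol for 8 members, in 10 windows, and not for Tslp. In these windows capitals mark the one match to either of 2 motifs searched on both strands, a STAT6 site spelled TTCNNNNGAA and the AP-1 site through which phorbol esters classically act, spelled TGACTCA or TGAGTCA. The windows are chr7:125552021-125552270 (+ strand) for Il4ra, chrX:147429193-147429442 (- strand) for Il13ra2, and chr1:40429320-40429569 and chr1:40439379-40439628 (both + strand) for 2 starts of Il1rl1.
Il4ra: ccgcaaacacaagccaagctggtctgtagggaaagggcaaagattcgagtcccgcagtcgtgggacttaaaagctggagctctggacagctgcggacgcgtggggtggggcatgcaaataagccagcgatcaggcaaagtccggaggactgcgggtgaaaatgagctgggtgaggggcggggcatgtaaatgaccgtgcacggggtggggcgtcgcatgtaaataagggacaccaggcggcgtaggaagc
Il13ra2: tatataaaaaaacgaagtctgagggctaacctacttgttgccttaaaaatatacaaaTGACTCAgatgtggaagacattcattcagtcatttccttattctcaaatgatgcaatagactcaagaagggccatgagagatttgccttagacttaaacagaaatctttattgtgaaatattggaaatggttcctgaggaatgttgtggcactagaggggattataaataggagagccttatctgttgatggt
Il1rl1, upstream start: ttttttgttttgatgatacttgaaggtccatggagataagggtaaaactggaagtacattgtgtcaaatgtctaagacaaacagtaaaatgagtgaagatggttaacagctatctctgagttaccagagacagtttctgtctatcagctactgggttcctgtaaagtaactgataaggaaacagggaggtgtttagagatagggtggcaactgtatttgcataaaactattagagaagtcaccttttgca
Il1rl1, downstream start: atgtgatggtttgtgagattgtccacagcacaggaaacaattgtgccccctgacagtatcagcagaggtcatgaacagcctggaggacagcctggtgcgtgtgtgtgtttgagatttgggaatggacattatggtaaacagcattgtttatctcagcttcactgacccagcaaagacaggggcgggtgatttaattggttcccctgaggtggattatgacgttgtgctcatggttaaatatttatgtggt
The AP-1 match TGACTCA began 193 bases before the Il13ra2 start, and 4.46% of 32851 windows of this length held such a match. The STAT6 spelling was found in 1 member window, upstream of an Il4 start, against 5.85% of all windows. These matches describe letters and do not show that a factor binds there.

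On day 4 the arrays of both genotypes stood apart from the other days. Krt10, a keratin of differentiated keratinocytes, had a mean of 13.63 in WT controls and 9.36 on day 4, and of 13.85 and 8.34 in D6-deficient skin, before returning to 13.94 and 13.78 on day 6. Krt14, a keratin of basal keratinocytes, rose by 1.10 in WT skin on day 4 in its brightest probe set and differed by -0.13 in D6-deficient skin, while Krt5, its partner, differed by 0.22 in WT skin and fell by 1.15 in D6-deficient skin, so that 1 of 4 keratinocyte markers rose and 2 fell in WT skin and 3 fell in D6-deficient skin. The neutrophil receptor gene Csf3r rose by 4.28 and 4.52 on the log2 scale on the same day, and Mcpt8, a basophil protease gene and the only basophil marker of a list of 2 on the array, rose by 3.96 and 4.40. Over the whole keratinocyte list (4 of 4 markers on the array) the mean level of an array ranged from 12.48 to 12.63 in WT controls and from 10.56 to 12.01 on day 4, and from 13.06 to 13.20 and from 9.64 to 10.83 in D6-deficient skin. Over the neutrophil list (4 of 5) it ranged from 6.83 to 8.64 and from 11.63 to 12.58 in WT skin, and from 8.07 to 9.38 and from 12.34 to 12.75 in D6-deficient skin. Of 3 eosinophil markers on the array, Epx had group means of 3.25 to 3.50 and was too dim to be tested, whereas Prg2 and Siglec5 both rose on day 4 in WT skin, by 1.65 and 2.46, and both on day 2 in D6-deficient skin, by 2.08 and 1.65. In whole skin, fewer cells of a type and less RNA per cell cannot be told apart. The part of these shifts in the day 4 values below was not tested. Of the 3 Ccbp2 probe sets, 1422112_at separated the genotypes on every array (4.15 to 5.76 in WT, 3.30 to 3.86 in D6-deficient skin), 1422111_at was lower by 0.69 with overlapping arrays, and 1437937_at did not differ by the test (adjusted p = 0.80), so no array went against its label on the first of these.

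**Figure D1:**
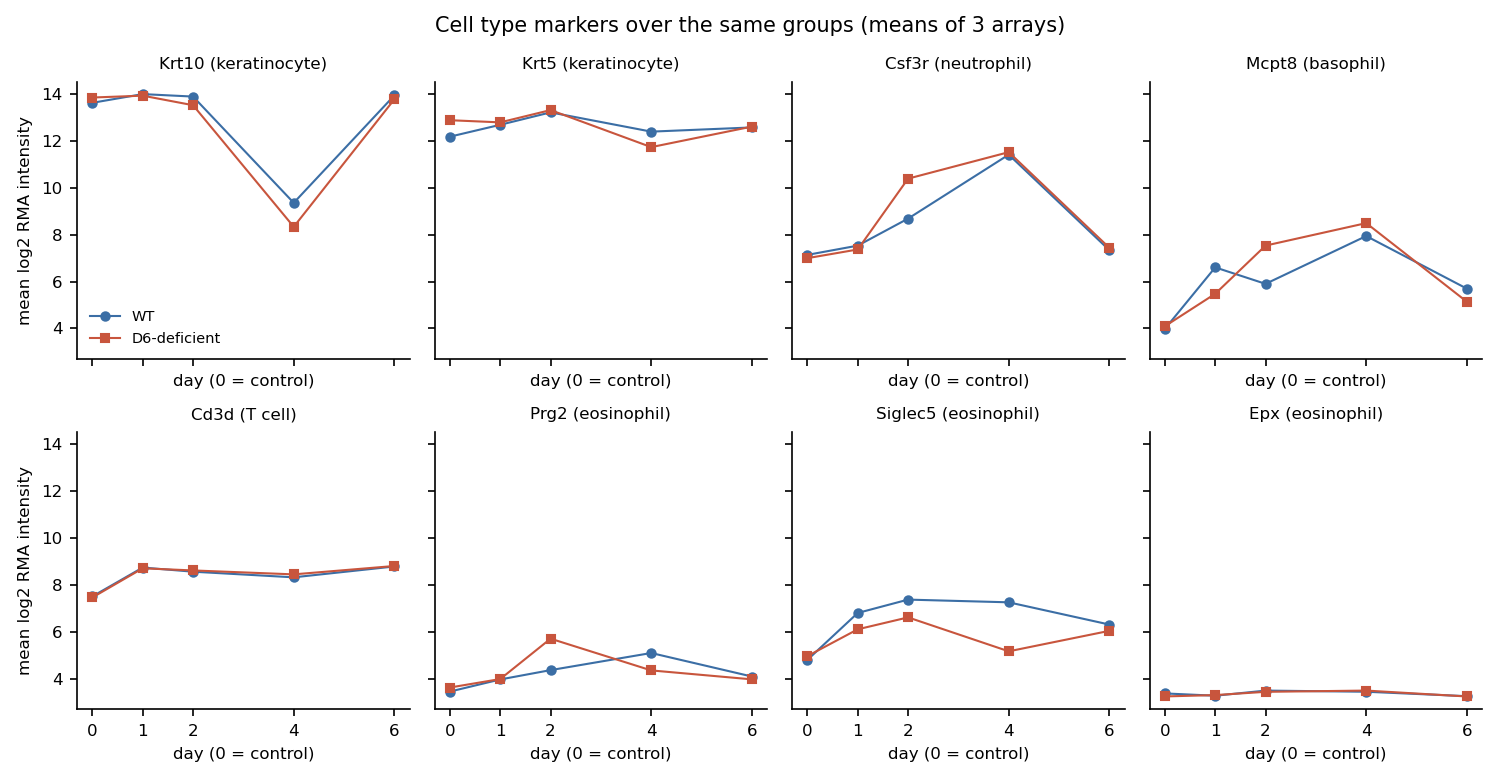
Mean log2 RMA intensity (3 arrays a group) of 8 cell type marker genes against day in WT (circles) and D6-deficient (squares) skin. Krt10 fell to 9.36 and 8.34 on day 4 while Krt5 stood at 12.40 and 11.74, Csf3r and Mcpt8 peaked on that day, and of the eosinophil markers Prg2 and Siglec5 rose after TPA while Epx had means of 3.25 to 3.50.

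TPA raised most of the pathway transcripts, and most of all on day 4. In WT skin 14 of the 18 probe sets, from 8 of the 9 genes, rose on day 4 against day 0, with Tslp the gene that did not pass. In D6-deficient skin 13 probe sets from 7 genes rose on that day, Il4 and Il13 being the genes that did not. The largest changes belonged to the dimmer probe set of Il1rl1 (3.83 in WT and 3.87 in D6-deficient skin on the log2 scale), Il4ra (2.52 and 2.82 for its most responsive probe set) and Il13ra2 (2.57 and 1.83), whereas Tslp rose by 2.85 in D6-deficient skin against 0.41 in WT skin. The brighter Il1rl1 probe set did not pass in either genotype. Across all 36029 probe sets, 39.1% passed on day 4 in WT skin (17.3% higher) and 41.1% in D6-deficient skin (18.8% higher). The median log2 change of the members was 0.86 and 0.67, beside 0.01 over all probe sets tested in either genotype.

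**Figure D2:**
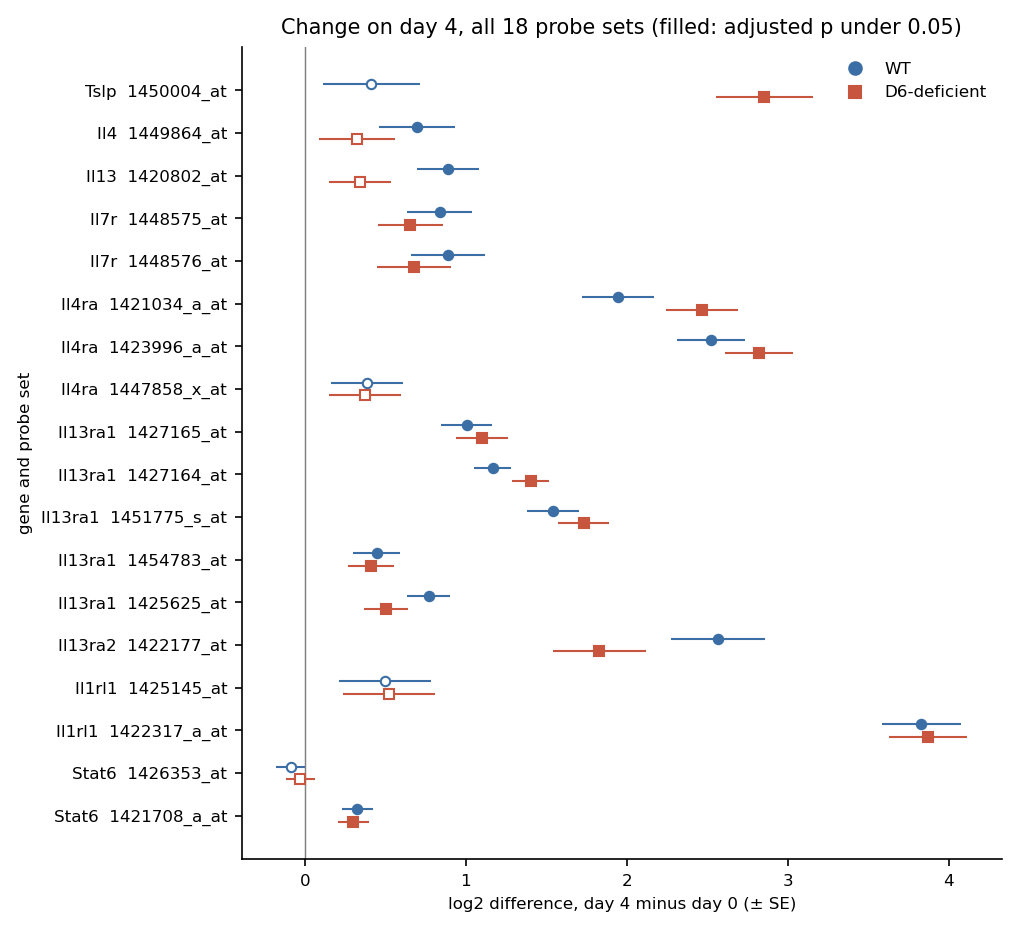
Log2 difference between day 4 and day 0 (± SE, from the fit over all 30 arrays) for the 18 probe sets in WT (circles) and D6-deficient (squares) skin, filled where the adjusted p was under 0.05. Probe sets of Il1rl1 and of Il4ra differ from one another, and Tslp lies near 0.41 in WT and at 2.85 in D6-deficient skin.

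The earlier and later days gave smaller counts. On day 1, 5 probe sets passed in WT skin (3 higher, 2 lower) where 24% of all probe sets did, and 6 in D6-deficient skin (4 higher, 2 lower) where 36.3% did. On day 2 the counts were 6 in WT skin, all higher and from Il7r and Il13ra1, beside 26.1% of all probe sets (11% higher), and 10 in D6-deficient skin, all higher and from 5 genes, beside 38.1% (17.5% higher). By day 6, 5 probe sets still differed from day 0 in WT skin (3 higher, 2 lower) beside 22.1%, and 2 in D6-deficient skin, both lower, beside 31.7%. The D6-deficient arrays of day 6 were the least alike within a group, with mean correlations of 0.976 to 0.982 to their own group, and each best matched a group of day 1. As shares of the 18 probe sets, the counts of day 1 in both genotypes and of day 6 in WT skin were near those of the whole array, the count of day 6 in D6-deficient skin was below it, and the counts of day 2 exceeded the share that rose.

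Tslp, the epithelial cytokine gene at the head of the pathway, was read by 1 probe set (1450004_at) and ran a different course in each genotype. In WT skin its 3 arrays read 7.30, 8.32 and 7.49 on day 0, 7.30, 7.02 and 7.24 on day 1, 8.23, 8.04 and 8.64 on day 2, 7.44, 8.36 and 8.54 on day 4, and 6.14, 5.90 and 6.12 on day 6. In D6-deficient skin they read 6.25, 6.24 and 6.96 on day 0, 6.81, 7.17 and 7.74 on day 1, 7.94, 7.86 and 8.11 on day 2, 8.72, 9.87 and 9.42 on day 4, and 6.61, 6.72 and 7.15 on day 6. The WT arrays of days 0, 2 and 4 overlapped and all 3 arrays of day 6 lay below every other array of the genotype, while the D6-deficient arrays of days 2 and 4 lay above all of their own controls. In D6-deficient skin Tslp rose by 1.49 (SE 0.30, adjusted p = 3.9e-04) on day 2 and by 2.85 (SE 0.30, adjusted p = 6.6e-08) on day 4, which is 7.23-fold, and on day 1 its difference of 0.76 missed the threshold (adjusted p = 0.053). In WT skin the differences were -0.52, 0.60 and 0.41 on days 1, 2 and 4, none of which passed, and the transcript then fell by 1.65 (SE 0.30, adjusted p = 4.4e-04) on day 6.

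Ordered by group mean, Tslp was highest in D6-deficient skin on day 4 (9.34), with no array overlapping the next group, WT skin on day 2 (8.30). From there down to D6-deficient skin on day 0 (6.48), the arrays of each group overlapped those of the next, and WT skin on day 6 (6.05) stood below all other groups. By their means the genotypes stood in opposite order on days 0 and 4. At day 0, D6-deficient skin had less Tslp, with a difference of -1.22 (SE 0.30, adjusted p = 0.040) and no overlap between the arrays. This was the 1 member probe set that differed on day 0, where 1.57% of all probe sets passed. The call rested on few arrays, since the adjusted p was 0.21 without WT replicate 2, whose 8.32 was the highest control value, 0.074 without WT replicate 3, 0.17 and 0.12 without D6-deficient replicates 1 and 2, and 0.099 with the arrays of the contrast alone. The keratinocyte list also differed between these groups, at 12.48 to 12.63 in WT and 13.06 to 13.20 in D6-deficient arrays (2 of 4 markers higher), as did the macrophage list, at 11.04 to 11.18 and 10.47 to 10.78 (1 of 3 lower), and 1 of 4 neutrophil markers, S100a8, was higher in D6-deficient skin by 2.41. Their part in the Tslp difference was not tested. On day 4 the direct difference was 1.22 in the other direction and missed the threshold, so that the day 4 difference of 2.44 relative to day 0, the 1 member probe set to pass that comparison (0.608% of all probe sets did), was made of equal parts from the lower start and the higher day 4 level. Leaving out any 1 array kept that value between 2.10 and 2.75, with adjusted p up to 0.045, and the fit to the 12 arrays of the contrast alone gave adjusted p = 0.068. In the same comparison 2 of the 4 keratinocyte markers passed in the other direction, Krt5 at -1.36 and Krt14 at -1.23, and their part was not tested. The remaining values relative to day 0 were 1.27 on day 1, 0.89 on day 2 and 1.99 on day 6 (SE 0.43 each, adjusted p = 0.30, 0.29 and 0.13).

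**Figure D3:**
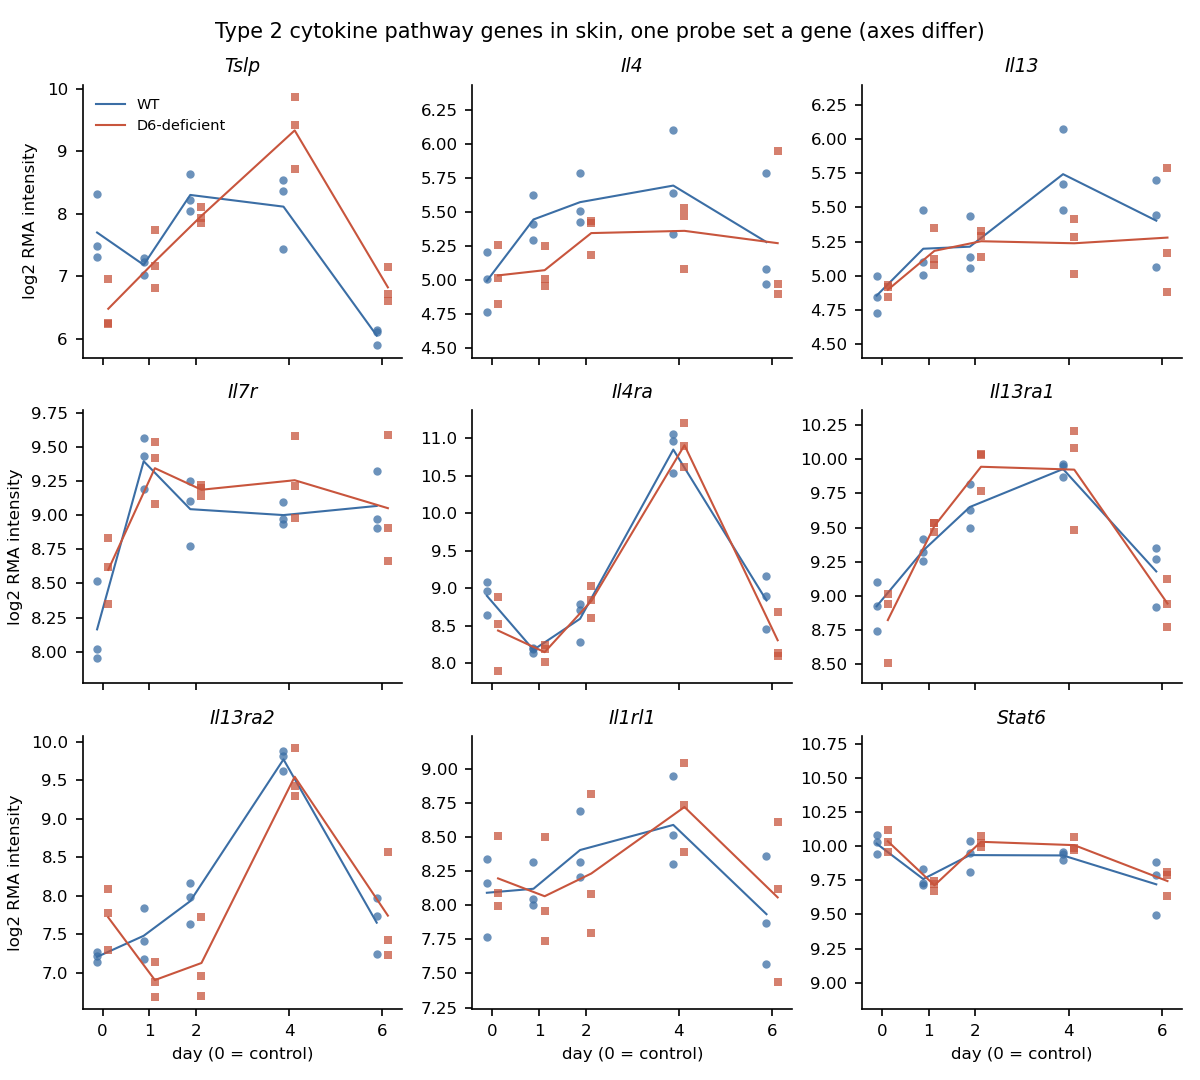
Log2 RMA intensity of every array (points) and group means (lines) against day for 1 probe set of each of the 9 genes, the brightest over all arrays, in WT (circles) and D6-deficient (squares) skin. Tslp is lower in D6-deficient skin on day 0 and reaches 8.72 to 9.87 there on day 4, and Il4ra and Il13ra2 peak on day 4 in both genotypes.

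Il4 and Il13, the genes of the cytokines that Il4ra serves, gave dim signals and small changes. The Il13 arrays (1420802_at) read 5.0, 4.72 and 4.84 in WT controls and 5.48, 6.08 and 5.67 in WT skin on day 4, against 4.93, 4.85 and 4.91 and 5.01, 5.28 and 5.42 in D6-deficient skin. The arrays of day 4 lay above their controls in both genotypes, and all 3 D6-deficient arrays lay below the WT arrays on that day. Il13 rose by 0.89 (SE 0.19, adjusted p = 7.0e-04) in WT skin on day 4, and the D6-deficient value was 0.34 (SE 0.19, adjusted p = 0.16). The difference between these changes, -0.55 (SE 0.27), did not pass (adjusted p = 0.47). On day 6 the WT value of 0.55 passed (adjusted p = 0.043) with all arrays, but not in the fit without WT replicate 1 of that day (0.40, adjusted p = 0.20) nor in 4 of the other fits that left out 1 array. Il4 (1449864_at) read 4.77, 5.01 and 5.21 in WT controls and 6.10, 5.34 and 5.64 on day 4, a rise of 0.70 (SE 0.24, adjusted p = 0.021) that was lost without WT day 4 replicate 1 (0.50, adjusted p = 0.14) and without WT day 0 replicate 1 (0.59, adjusted p = 0.090). In D6-deficient skin Il4 read 5.02, 5.26 and 4.83 at day 0 and 5.09, 5.47 and 5.53 on day 4, with overlapping arrays and a difference of 0.33 (adjusted p = 0.28).

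Il7r, the chain that TSLP shares with interleukin-7, rose early and in WT skin remained high. Its brighter probe set (1448575_at) read 7.95, 8.02 and 8.52 in WT controls and 9.43, 9.56 and 9.19 on day 1, and still 9.32, 8.97 and 8.91 on day 6. In D6-deficient skin it read 8.62, 8.35 and 8.83 in controls, 9.42, 9.08 and 9.54 on day 1, and 8.91, 8.66 and 9.59 on day 6. Every WT array of days 1 to 6 lay above every WT control, whereas the D6-deficient arrays of day 6 overlapped theirs. The rise on day 1 was 1.23 (SE 0.20, adjusted p = 1.0e-04) in WT and 0.74 (SE 0.20, adjusted p = 0.0057) in D6-deficient skin. WT skin kept a difference of 0.90 on day 6 (SE 0.20, adjusted p = 0.0025), and the D6-deficient value was 0.45 (adjusted p = 0.094). The second probe set (1448576_at) gave 1.26 and 0.67 on day 1 and correlated with the first at r = 0.89 over the 30 arrays, but its D6-deficient arrays overlapped the controls on each day and its calls there on days 1 and 4 were lost without D6-deficient day 0 replicate 2 (adjusted p = 0.22 and 0.20). Without that array the brighter probe set also lost its D6-deficient calls of days 2 and 4 (adjusted p = 0.12 and 0.067). The 4 genotype differences relative to day 0 in the brighter probe set lay between -0.49 and -0.18, and none passed. Cd3d, a T cell receptor component, was also higher on days 1 and 6, with a mean of 7.52 in WT controls, 8.75 on day 1 and 8.79 on day 6, and of 7.47, 8.72 and 8.81 in D6-deficient skin. Over the T cell list (5 of 5 markers) the level of an array ranged from 6.67 to 7.17 in WT controls and from 7.48 to 7.89 on day 1, and its part in the Il7r values was not tested.

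Il4ra, the signalling chain shared by the IL-4 and IL-13 receptors, was raised almost exclusively on day 4. The brightest of its 3 probe sets (1421034_a_at) read 9.08, 8.97 and 8.65 in WT controls and 11.05, 10.53 and 10.96 on day 4, and 8.53, 8.88 and 7.90 and then 11.20, 10.62 and 10.89 in D6-deficient skin. The 6 arrays of day 4 lay above all other 24 arrays. This amounted to a rise of 1.95 in WT (SE 0.22, 3.85-fold, adjusted p = 2.8e-07) and of 2.47 in D6-deficient skin (SE 0.22, 5.53-fold, adjusted p = 5.0e-09). 1423996_a_at, which followed it at r = 0.97 over the 30 arrays, rose by 2.52 and 2.82, and in D6-deficient skin it already stood higher on day 2 by 0.87 (SE 0.21, adjusted p = 0.0021), with 8.68, 8.19 and 8.20 above controls of 7.63, 7.84 and 7.0. On day 1 in WT skin 1421034_a_at had fallen by 0.72 (SE 0.22, adjusted p = 0.020), a call that 4 of the fits leaving out 1 array did not keep. The dimmest probe set (1447858_x_at, of a class whose probes can match other sequences) gave 0.39 and 0.37 on day 4 and did not pass. Over all 3 probe sets the same-day genotype differences lay between -0.61 and 0.39 and none passed.

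**Figure D4:**
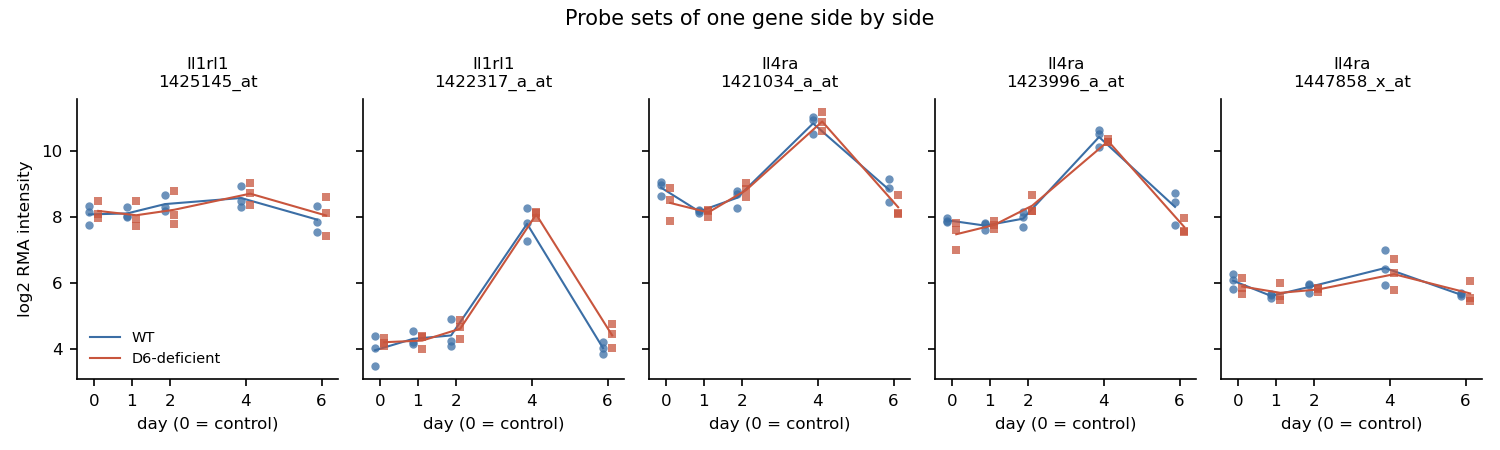
Log2 RMA intensity of every array (points) and group means (lines) against day for both probe sets of Il1rl1 and the 3 of Il4ra, on a common axis, in WT (circles) and D6-deficient (squares) skin. The dimmer Il1rl1 probe set 1422317_a_at reads 7.28 to 8.29 on day 4 and below 5 on all other days, while 1425145_at stays between 7.44 and 9.04.

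Il13ra1, which completes the second IL-4 and IL-13 receptor with Il4ra, was already raised on day 2 in most of its probe sets. All 5 of its probe sets passed on day 4 in both genotypes, while on day 2 it was 4 in WT skin and all 5 in D6-deficient skin, and on day 1 it was 1 and 2. Among them 1425625_at was dim, with a mean of 3.78 over all arrays beside a lowest mean kept by the filter of 3.72. Its control means, 3.41 in WT and 3.61 in D6-deficient skin, lay below that value. It was thus tested only through groups where it was higher after TPA, and its calls add no support. The brightest, 1427165_at, read 8.74, 8.93 and 9.10 in WT controls, 9.26, 9.32 and 9.42 on day 1, 9.63, 9.82 and 9.50 on day 2 and 9.87, 9.95 and 9.96 on day 4. In D6-deficient skin it read 8.94, 8.51 and 9.01, then 9.53, 9.47 and 9.53, then 10.03, 10.04 and 9.76, and 9.48, 10.21 and 10.08 on the same days. No array of days 1 to 4 overlapped the controls of its genotype, and by day 6 the groups overlapped again. Its differences were 0.41 (adjusted p = 0.066), 0.73 and 1.01 in WT skin and 0.69, 1.12 and 1.10 in D6-deficient skin (SE 0.16 each), of which all but the first passed. 1451775_s_at gave the largest changes, rising by 0.55, 0.94 and 1.54 in WT skin and by 0.94, 1.48 and 1.73 in D6-deficient skin, the last being 3.32-fold, and the remaining 3 probe sets gave 0.41 to 1.40 on day 4.

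One Il13ra1 probe set, 1427164_at, was the member that differed between genotypes on day 2, where 4.45% of all probe sets passed. Its arrays read 9.51, 9.63 and 9.25 in WT and 9.92 to 10.01 in D6-deficient skin, without overlap. The difference was 0.51 (SE 0.11, adjusted p = 0.0082), and it was 0.40 with adjusted p = 0.074 when WT replicate 3, the lowest array, was left out, and adjusted p = 0.060 with the 6 arrays of the day alone. The other 4 probe sets of the gene differed on day 2 by 0.21 to 0.46 in the same direction, none of them past the threshold. The mean over all 5 days for 1427164_at was 0.18 (SE 0.05, adjusted p = 0.045), the single member call of that comparison, in which 5.52% of all probe sets passed. It was lost in the fit without the day 4 arrays (0.14, adjusted p = 0.21) and in 23 of the 30 fits that left out 1 array.

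Il13ra2, the decoy receptor, shared the peak of Il4ra on day 4 but differed from it before. The arrays (1422177_at) read 7.14, 7.21 and 7.26 in WT controls and 9.62, 9.88 and 9.82 on day 4, and 8.08, 7.29 and 7.77 and then 9.30, 9.43 and 9.91 in D6-deficient skin. All 6 arrays of day 4 lay above the other 24. The rises were 2.57 (SE 0.29, 5.93-fold, adjusted p = 2.5e-07) in WT and 1.83 (SE 0.29, 3.56-fold, adjusted p = 1.9e-05) in D6-deficient skin. Before that, D6-deficient arrays read 6.88, 6.69 and 7.14 on day 1 and 7.72, 6.70 and 6.95 on day 2, where WT arrays read 7.41, 7.84 and 7.18 and 7.99, 7.64 and 8.16. All 3 D6-deficient arrays of day 1 lay below their controls and below the WT arrays of that day, whereas on day 2 the genotypes overlapped through 1 array. In D6-deficient skin the transcript fell by 0.81 on day 1 (SE 0.29, adjusted p = 0.031), and 4 of the fits that left out 1 array lost this call, the adjusted p reaching 0.14 without D6-deficient day 0 replicate 1. Relative to day 0 the genotype difference was -1.09 on day 1 (adjusted p = 0.37) and -1.32 on day 2 (SE 0.41, adjusted p = 0.062), so neither passed with all arrays. The day 2 value passed without D6-deficient day 2 replicate 1 (-1.62, adjusted p = 0.019), the array that overlapped WT skin. It also passed with the arrays of the contrast alone (adjusted p = 0.046). The other fits that left out 1 array are not listed here, and the difference is not counted as a call.

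Il1rl1, the receptor gene for IL-33, showed the largest measured change among the member probe sets in one of its 2. 1422317_a_at read 4.40, 4.04 and 3.49 in WT controls and 7.28, 7.84 and 8.29 on day 4, and 4.33, 4.21 and 4.12 and then 8.00, 8.15 and 8.12 in D6-deficient skin. On days 0, 1, 2 and 6 no array of either genotype exceeded 4.92. The rises on day 4 were 3.83 (SE 0.24, adjusted p = 5.0e-11) and 3.87 (SE 0.24, adjusted p = 2.6e-11), and the difference between them was 0.04 (SE 0.35). The control values lay near the lowest mean kept by the filter (3.72), and the matrix gives no detection call to show whether they exceeded background. No fold is therefore given beyond the threshold used to choose the promoter windows. The brighter probe set, 1425145_at, read 7.77, 8.16 and 8.34 in WT controls and 8.95, 8.30 and 8.51 on day 4, and 7.99, 8.51 and 8.09 and then 9.04, 8.39 and 8.73 in D6-deficient skin. These arrays overlapped their controls in both genotypes, with differences of 0.50 and 0.52 (SE 0.28, adjusted p = 0.17 and 0.15). The probe sets correlated at r = 0.51 over the 30 arrays, and the deposited matrix does not say which transcript form each reads. Mcpt8 had already reached a mean of 6.61 in WT skin on day 1 and 7.54 in D6-deficient skin on day 2, and mast cell markers (5 of a list of 6 on the array) had mean levels of 9.36 to 9.65 in WT and 9.36 to 9.78 in D6-deficient skin on day 4 beside 9.81 to 9.89 and 9.56 to 9.93 in controls. Their part in the Il1rl1 values was not tested.

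Stat6, the transcription factor of the pathway, had the smallest range of group means (0.32 and 0.39 for its 2 probe sets). The brighter probe set (1426353_at) read 9.95, 10.03 and 10.08 in WT controls and 9.83, 9.73 and 9.71 on day 1, and 10.03, 10.12 and 9.96 and then 9.72, 9.67 and 9.75 in D6-deficient skin. The arrays did not overlap, with falls of 0.26 (adjusted p = 0.038) and 0.32 (adjusted p = 0.0069), and a similar fall of 0.30 and 0.29 was found on day 6, though the WT calls were lost in 4 fits (day 1) and 3 fits (day 6) that left out 1 array. The other probe set (1421708_a_at) rose by 0.33 and 0.30 on day 4 (SE 0.10, adjusted p = 0.0090 and 0.014), where the first gave -0.09 and -0.03. The probe sets correlated at r = 0.23 over the 30 arrays, so the direction of a Stat6 change depended on the probe set.

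Between genotypes on the same day, the pathway differed little apart from Tslp and the Il13ra1 probe set described. No member passed on day 1 (0.0555% of all probe sets), day 4 (0.513%) or day 6 (0.125%) by limma. At an unadjusted p under 0.05 there were 0, 3 and 4 member probe sets on these days, where 8.01%, 10.1% and 8.37% of all probe sets reached that level. The unpaired t-test of the study's methods, also unadjusted, gave 10 calls over the 5 days and none after Benjamini-Hochberg adjustment, and unadjusted it called 9.58% of all probe sets, a share near that of the members. Relative to day 0, no member passed on day 1 (0.0194% of all probe sets), day 2 (5.4%) or day 6 (0.025%) by limma. At an unadjusted p under 0.05 there were 2, 6 and 2, beside 9.7%, 16.9% and 8.01% of all probe sets. Among the day 4 values relative to day 0, those of the receptor genes lay between -0.74 for Il13ra2 and 0.52 for Il4ra, with SE from 0.16 to 0.41.

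**Figure D5:**
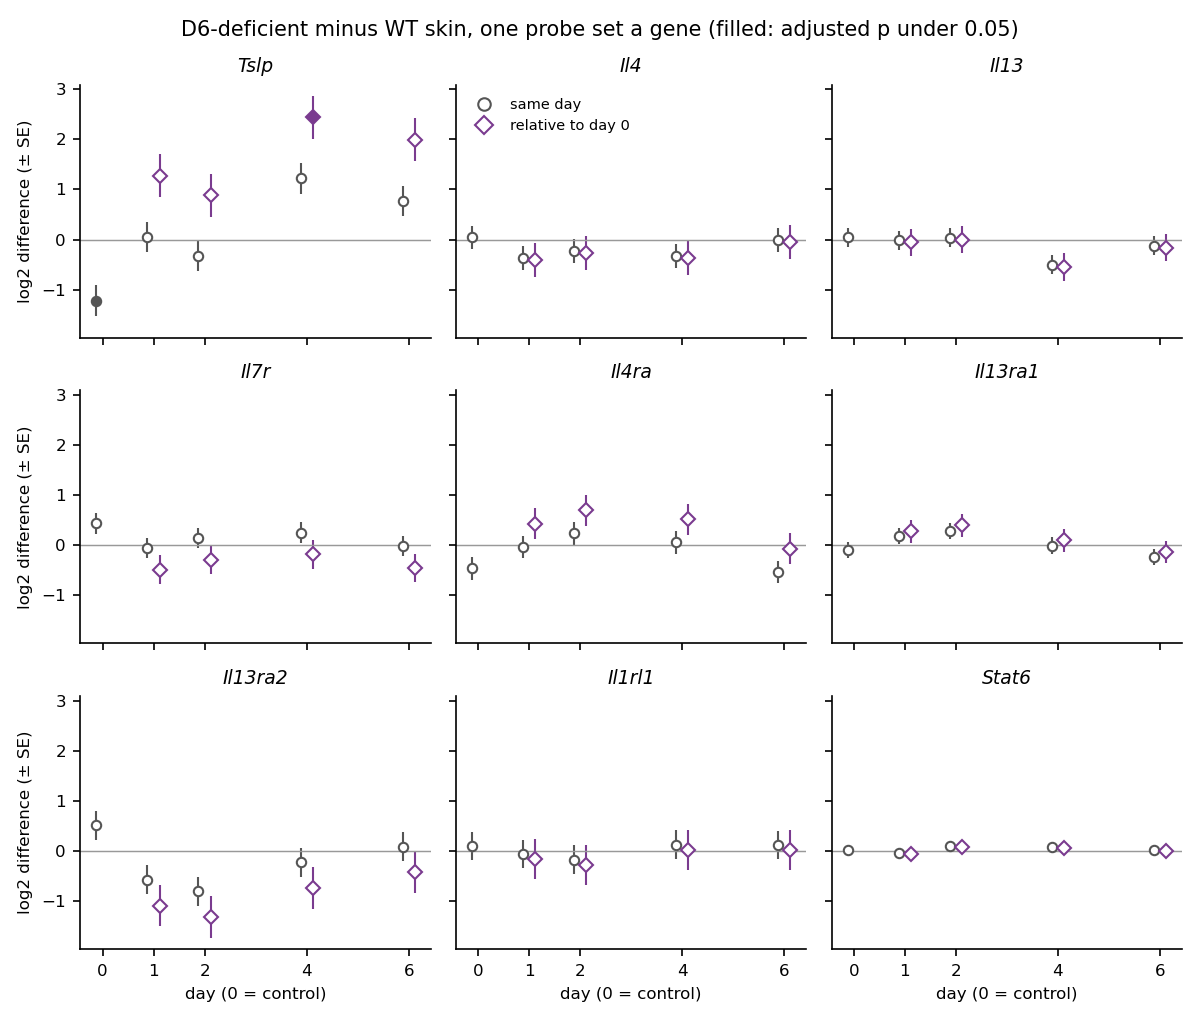
Log2 difference between D6-deficient and WT skin (± SE) against day, on the same day (circles) and relative to the day 0 difference (diamonds), for the brightest probe set of each gene, filled where the adjusted p was under 0.05. Tslp moves from -1.22 on day 0 to 1.22 on day 4, Il13ra2 is at -0.80 on day 2, and the other genes lie nearer to 0.

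Receptor partners and other ligands of the pathway rose alongside the members. Of a list of 14 such genes, 11 were tested, with 18 probe sets, of which 12 rose and none fell on day 4 in WT skin and 11 rose and 1 fell in D6-deficient skin. Over all probe sets, 17.3% rose and 21.8% fell on that day in WT skin, and 18.8% and 22.4% in D6-deficient skin. Crlf2, the TSLP-specific receptor chain, had a mean of 8.56 in WT controls and 9.34 on day 4, a rise of 0.78 (SE 0.19, adjusted p = 0.0021), and of 8.24 and 9.72 in D6-deficient skin, a rise of 1.48 (SE 0.19, adjusted p = 1.2e-06). The difference between these rises did not pass. Il2rg rose by 1.67 and 1.37 in its brightest probe set. Il1rap, the coreceptor of ST2, rose by 2.97 and 3.21 in 1449585_at (SE 0.18) and in both of its other probe sets. Il33, the ligand of ST2, rose by 2.55 and 2.40 on day 4 (SE 0.28), and in D6-deficient skin had already risen by 1.87 on day 2 (adjusted p = 9.9e-06), when the genotypes differed by 1.44 (SE 0.28, adjusted p = 0.0020). Relative to day 0, however, no probe set of this list passed between genotypes on day 2. Il31ra, a receptor chain for the itch cytokine IL-31, fell by 1.75 in WT and 2.34 in D6-deficient skin on day 2, and Il5, the eosinophil growth factor gene, rose by 0.43 on day 4 in WT skin at a dim level (mean 4.0 over all arrays).

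Of 10 signalling and feedback genes with 20 probe sets, 11 probe sets rose and 2 fell on day 4 in WT skin, and 12 rose and 2 fell in D6-deficient skin. The shares that rose over all probe sets were 17.3% and 18.8%. Socs3, a feedback inhibitor of cytokine signalling, rose by 2.11 to 2.20 in WT and 2.21 to 2.28 in D6-deficient skin over its 3 probe sets, and Socs1 rose by 1.43 and 1.26 in its brighter probe set. Jak2 rose by 1.43 and 1.60 in 1421065_at. Gata3, which directs type 2 lymphocytes and is also made by keratinocytes, fell by 1.38 in WT and 2.78 in D6-deficient skin on day 4, and by 1.73 in D6-deficient skin on day 2, where its difference relative to day 0 was -1.46 (SE 0.38, adjusted p = 0.024). In the direct comparison of the genotypes on day 2, no probe set of this list passed.

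Of 11 genes known to be induced through STAT6, 10 were tested, with 11 probe sets, of which 8 rose and none fell on day 4 in WT skin and 6 rose and 1 fell in D6-deficient skin. Here too the shares that rose over all probe sets were 17.3% and 18.8%. The chitinase-like gene Chi3l3 rose by 5.68 and 5.61 in 1419764_at, although it had already risen by 2.03 and 2.72 on day 1. Ccl22, a chemokine gene of dendritic cells, rose by 3.64 and 2.90, and Ccl24, an eosinophil chemoattractant gene, by 3.06 and 2.74. Arg1, an arginase gene of alternatively activated macrophages, rose by 2.94 and 2.23 on day 4 and by 2.79 on day 2 in D6-deficient skin, where it exceeded WT skin by 3.05 (SE 0.48, adjusted p = 2.7e-04). It was the 1 probe set of this list that was higher in D6-deficient skin on day 2, and 1 other was lower. The same-day differences of the list on day 2 lay between -1.15 and 3.05, with a median of -0.21. On day 4 the same-day genotype differences of the list lay between -2.14 and -0.0045, and none passed. Postn was the gene that fell, by 0.96 in D6-deficient skin. Neutrophil, basophil and keratinocyte markers moved over the same days, as given above, and their part in these counts was not tested.

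The genes whose group means ran most like those of the members were sought among 9257 probe sets spanning more than 1 on the log2 scale, over the 10 groups, as a description. Il4ra was nearest to Pdpn (r = 0.99) and then to A4galt, Mvp, Ptx3 and Sfxn5 (0.98 to 0.99). Il13ra2 was nearest to Ccl22 (r = 0.99), Il13ra1 to Crabp1 (r = 0.98) and Il7r to the interleukin-18 receptor gene Il18r1 (r = 0.96). Tslp had no neighbour as near, the first being Fli1 (r = 0.89). Among the members themselves, the quoted probe sets of Il4ra and Il13ra2 were most alike (r = 0.91), while Il7r and Il4ra were unrelated (r = 0.02). With 10 points that share arrays and the day 4 peak, these values carry no test.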

How the data were processed

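RNA of whole back skin from 30 mice, 3 in each of 10 genotype-by-day groups, was hybridised to Affymetrix whole-genome mouse expression arrays. The authors normalised the scans by RMA in GeneSpring GX, and the deposited matrix holds the resulting intensities on a linear scale, of which log2 was taken here. The replicates were separate mice, and their number limits the precision. A second deposited text, a sample sheet, was not used, and 0 columns of values were left unmapped. The 64 control probe sets and the dimmest 20% of the others by mean (9008) were left out, which left 36029. limma 3.58.1 in R 4.3.3 (lmFit and eBayes, two-sided) was fitted to all 30 arrays with a mean for each group and 20 residual degrees of freedom, and p-values were adjusted by the Benjamini-Hochberg method over all probe sets of a comparison, with 0.05 as the threshold. The median SD within groups was 0.187. The comparisons were each TPA day against day 0 in each genotype, D6-deficient against WT skin on the same day, that difference relative to day 0, and the mean difference over all days. Comparisons with day 0 share their control arrays, as do those relative to day 0. All member probe sets are named, the brightest of a gene being quoted first, with at most 4 further genes a pathway list beside the receptor partners Crlf2, Il2rg and Il1rap. The members and the lists were chosen with earlier results of these data known. The fit was tested on simulated data. The alternatives were no filter, median centring of the arrays, an intensity trend with a robust prior, fits to the arrays of a contrast alone, the methods' t-test, a 3-fold minimum, array weights, the spike control set as a covariate, a replicate block, averaged probe sets and leaving out each array. For the spike covariate the arrays were split into a low and a high set by control signal, and all 3 D6-deficient arrays of day 6 fell in the high set. Leaving out day 4 was added after seeing the data. The deposited matrix names no genome build, and promoter windows are those of RefSeq (GRCm38.p6). Figures were drawn with matplotlib 3.10.9.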

Additional observations from a re-analysis of the deposited data

Results flagged for a closer look

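Tslp was the one result picked out here, because the genotypes differed in their change from day 0 to day 4 by a test of that difference itself. The difference was 2.4403 on the log2 scale (D6-deficient minus WT skin, limma adjusted p = 0.0098), between a rise of 2.85 in D6-deficient skin and a value of 0.41 in WT skin, and all 3 D6-deficient arrays of day 4 lay above their controls. It was lowest, 2.10, without WT day 4 replicate 1 and highest, 2.75, without D6-deficient day 4 replicate 1. As given above, it did not pass in the fit to the arrays of the contrast alone, and the direct day 4 difference missed the threshold. An equal part of the value came from the day 0 difference, whose call rested on few arrays.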

How the results depend on the processing

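Of 18 probe sets over 4 days, the fit to all arrays gave 30 calls in WT skin and 31 in D6-deficient skin against day 0, 2 between genotypes on the same day, 1 relative to day 0 and 1 over all days. No single value changed direction while called under any alternative. With only the arrays of each contrast there were 0 same-day calls. The methods' t-test gave 10 same-day calls, 21 relative to day 0 and 0 over all days without adjustment, where its values relative to day 0 carry no error for the baseline by construction, and where it called 20.9% of all probe sets, and after adjustment 17 in WT skin, 16 in D6-deficient skin and 0, 0 and 0 between genotypes. Array weights gave 4 same-day calls and 4 relative to day 0. Requiring 3-fold left 5 in WT skin, 6 in D6-deficient skin, 0 same-day and 0 over all days. Averaging the probe sets of a gene, which leaves 9 genes, gave 13, 12, 1 same-day and 0 over all days. Without the day 4 arrays there were 0 over all days. Leaving out 1 array gave 1 to 3 same-day calls (1 without WT day 0 replicate 3, 3 without D6-deficient day 2 replicate 1), 1 to 2 relative to day 0 (2 without D6-deficient day 0 replicate 2), 0 to 1 over all days, 24 to 33 in WT skin and 26 to 32 in D6-deficient skin. Where construction does not give it, the cause was not tested. Apart from the unadjusted t-test, shares over all probe sets are not given for the alternatives. A count that changed under them is therefore not a result about the members.

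Replicate numbers were shared by the groups and were not used as pairs in the fit to all arrays. The deviations of same-numbered arrays of a day correlated at -0.18 to 0.38, and 3 of 15 pairs exceeded 0.1. The pairs of day 6 were all positive (0.27, 0.38 and 0.08). With so few arrays a group, these values cannot exclude shared handling. With the replicate block the counts were 30 and 32 against day 0, 3 on the same day, 1 relative to day 0 and 0 over all days.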
